A study of Arabidopsis thaliana with 8 samples.

Results

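The genes on either side of TCP15 on chromosome 1 were examined in *Arabidopsis* inflorescences that do or do not carry an insertion in TCP15. The set comprised every probe set read as exactly 1 gene with a locus tag from AT1G67500 to AT1G72000, an interval with TCP15 (AT1G69690) near its middle. It held 219 of the 22810 probe sets of the Affymetrix ATH1 array, for 218 of 13286 genes with a named probe set. A RefSeq gene table lists 473 protein-coding genes in the interval, 240 before TCP15 and 232 after it, so the other genes there were not analysed here. Locus tags run in order along the chromosome.

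Arrays fell into 4 groups of 2, all from accession Ws, all from inflorescences at growth stage 6.0, with 10 plants pooled. CON is the control and no modification is labelled for it. T13 carries a T-DNA insertion in AT3G47620 (TCP14, on chromosome 3) and T14 carries one in TCP15. HET is labelled heterozygous at both loci, whereas no zygosity is given for T13 or T14. Each insertion is represented by a single line, so a property of the line and an effect of its insertion cannot be told apart. Nothing in the labels shows that paired arrays were made from different plants, and p-values then cover only the variation between arrays, possibly technical in origin. The title of HET replicate 2, alone among the arrays, calls it a repeat.

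TCP proteins are plant transcription factors that act on cell division and growth in leaves, flowers and fruits, and TCP14 and TCP15 are closely related members of the family. T-DNA is bacterial plasmid DNA that integrates into plant chromosomes and can disrupt the gene where it lands. Genes close to an insertion on the same chromosome are usually inherited with it, because recombination between near neighbours is rare. The comparison therefore asked whether neighbours of TCP15 differed in the groups that carry the TCP15 insertion, T14 and HET, from those that do not, CON and T13.

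The unit throughout is the deposited intensity on a linear scale. Differences are of log2(intensity + 16), which understates changes of dim genes. Array medians ran from 51.35 to 59.5, and the number of arrays limits the precision. A probe set was kept for testing if on at least 2 arrays it was no dimmer than that array's 40th percentile, which lay between 34 and 41.4. Of the 219 probe sets, 155 were kept, 109 of them through all 8 arrays, while the 64 others lay between 0.3 and 48.5. AT1G70150 was kept through the HET arrays alone, 4 members through T14 and HET arrays alone and 1 through CON and T13 arrays alone. For GAPDH, 5' over 3' control signal, a measure of RNA quality, was 0.345 on HET replicate 1 and 0.0639 to 0.129 elsewhere. The 5' signal was thus below the 3' signal on all 8 arrays, and least so on HET replicate 1. Of 12 markers of inflorescence and floral organs only SPT, a regulator of carpel development, had a named probe set. It was kept, at 66.7 to 129, and the root marker PYK10 was at 23.9 to 60.4 and was not kept.

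TCP15 itself was low in T14 and not in HET, and the labels do not place its probes relative to the insertion. Its intensity was 198.2 and 244 in CON, 205.9 and 204.1 in T13, 86 and 68.8 in T14, and 188.2 and 221.8 in HET. Both T14 arrays lay below the other 6, and the HET arrays overlapped CON and T13, with HET replicate 1 just below their lowest array. T14 was lower than T13 by a log2 difference of -1.25 (SE 0.2, limma adjusted p = 0.0244). The difference of T14 from CON was -1.34 (SE 0.2) and did not pass (limma adjusted p = 0.0606). HET differed from CON by -0.10 with a 95% interval of -0.54 to 0.34 (limma adjusted p = 0.994), and from T14 by 1.24 (SE 0.2, limma adjusted p = 0.01). The T14 to T13 call was lost without T13 replicate 1 (limma adjusted p = 0.145), T13 replicate 2 (0.168) or T14 replicate 2 (0.146). The HET to T14 call was lost without T14 replicate 2 (limma adjusted p = 0.098), HET replicate 1 (0.0596) or HET replicate 2 (0.0829).

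AT1G68875, which the RefSeq table places 86 genes before TCP15, fell in T14, while HET was higher than T14. Its intensity was 247.1 and 259.2 in CON, 328.3 and 296 in T13, 47.3 and 41.4 in T14, and 664.1 and 328.2 in HET. The T14 arrays were the lowest of the 8, and the highest was HET replicate 1. Against CON, T14 fell, with a log2 difference of -2.16 (SE 0.277, limma adjusted p = 0.0341), and was lower than T13 by a log2 difference of -2.44 (limma adjusted p = 0.0165). HET had a log2 difference from CON of 0.85 (95% interval 0.24 to 1.45), which did not pass over the array (limma adjusted p = 0.428). HET against T14 gave 3.00 (SE 0.277, limma adjusted p = 0.000546), so the groups labelled as carrying an insertion in TCP15 differed for this neighbour. With the GAPDH ratio as a covariate it was 2.235 and did not pass (limma adjusted p = 0.105). The T14 to CON call did not survive removal of CON replicate 1, CON replicate 2, T14 replicate 1 or T14 replicate 2 (limma adjusted p = 0.287, 0.193, 0.138 and 0.142), with log2 differences from -2.229 to -2.088. Without HET replicate 2 the difference of HET from CON was 1.338 and passed (limma adjusted p = 0.0294).

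**Figure D1:**
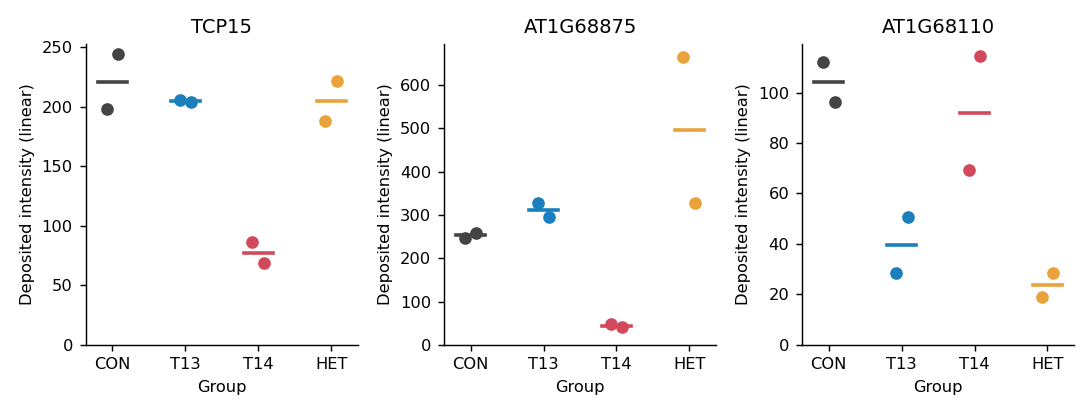
Deposited intensity (vertical axis, linear, from 0) of TCP15, AT1G68875 and AT1G68110 in the 4 groups, with 1 point per array and a line at the mean of 2 arrays. TCP15 and AT1G68875 are lowest on the T14 arrays, while AT1G68110 is lowest in HET and next lowest in T13.

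The genes most like AT1G68875 over the 8 arrays lay outside the interval. Likeness was the Euclidean distance between log2(intensity + 16) values after centring each gene on its mean, taken over all kept probe sets of 1 gene. The nearest was ATA27, a beta-glucosidase of the tapetum, at a distance of 1.06, where the profile of AT1G68875 itself had a size of 3.3. Next came AT5G48210 (1.31), the tapetum gene A9 (AT5G07230, 1.55), AT3G05500 (1.56) and AT1G02813 (1.79). ATA27 was at 207.2 and 209.9 in CON, 232.1 and 220.1 in T13, 62.9 and 71.9 in T14, and 568.7 and 407.8 in HET. It thus had the same order of groups as AT1G68875, with no array of T14 or HET inside the range of CON and T13. The tapetum is the cell layer of the anther that feeds developing pollen. Of 8 tapetum and young anther markers 3 had a named probe set, all kept, and their summed intensity was 387.2 to 426.4 in CON, 519.9 to 530.1 in T13, 116.1 to 220.9 in T14 and 720.8 to 1109.9 in HET. ATA27 and A9 carried these sums, and AMS, a transcription factor of the tapetum, had another order, with means of 23.7 in CON, 46.3 in T13, 26.3 in T14 and 42 in HET. This marker list holds genes that earlier results of these data named. The part of tapetum content in the values of AT1G68875 was not tested. In whole inflorescences, fewer cells of a type and less RNA per cell cannot be told apart.

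**Figure D2:**
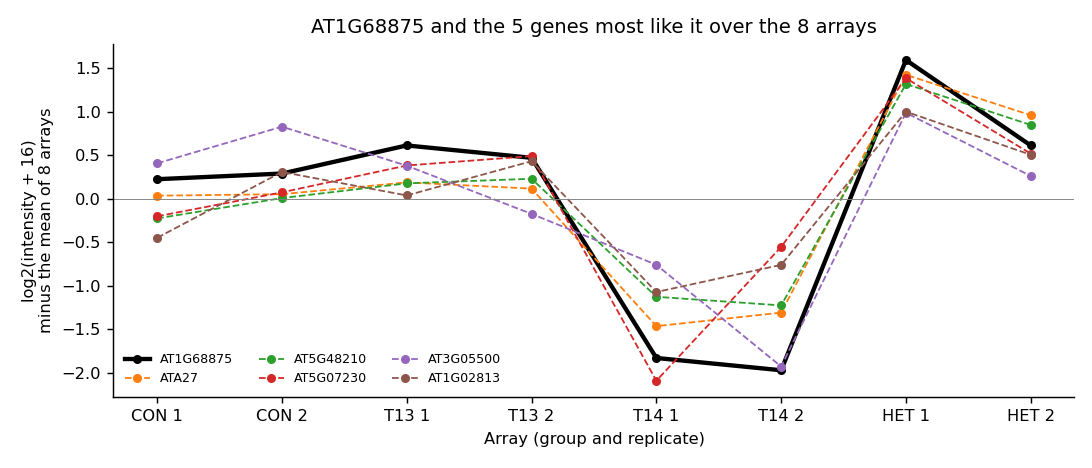
Log2(intensity + 16) minus the mean of the 8 arrays (vertical axis) on each array (horizontal axis) for AT1G68875, drawn in black, and for the 5 genes nearest to it. AT1G68875, ATA27 and AT5G48210 are each lowest on the T14 arrays and highest on HET replicate 1.

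For TCP15 the 5 nearest profiles were also outside the interval, and its own profile had a size of 1.6. They were AT2G03850 at a distance of 0.68, AT4G23960 (0.82), AT4G03010 (0.86), AT3G56750 (0.87) and AT2G17910 (0.89). AT2G03850 was at 70.6 and 90 in CON, 90 and 102.1 in T13, 41.8 and 32.9 in T14, and 121.2 and 95.3 in HET. As for TCP15, both T14 arrays were the lowest of the 8. AT4G23960 was at 23.7 to 41.6 in CON and at 6.5 and 5.3 in T14.

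The question about linked genes was put to all kept members at once with the contrast of T14 and HET against CON and T13. None of the 155 kept members passed in limma, while 0.0731% of all 15045 kept probe sets did (11 probe sets, all lower in T14 and HET). At an unadjusted p under 0.05 there were 14 members, or 9.03%, against 4.89% over the array. Of these, 8 were lower in the insertion groups (3.25% of the array was) and 6 were higher (1.64%). The 6 include AT1G68620, which passed the filter only through T14 and HET arrays, where it is high. In flanks of the interval, from AT1G65000 and up to AT1G74500, the share at an unadjusted p under 0.05 was 7.45%. It was 10.4% in the flank before the interval and 5.32% in the flank after it, so a raised share was not particular to the interval. The members' share was above that of the array in 14 of 17 alternatives, which reuse the same arrays and are not independent. The gap was wide with a filter on the mean of all arrays (8.76% against 4.81%). It was narrow with no intensity trend (5.81% against 5%) and with scanner background as a covariate (2.58% against 2.04%). In the other 3 it was 2.68% against 3.4% without CON replicate 1, 2.63% against 3.4% without HET replicate 1, and 1.94% against 2.53% with the GAPDH ratio as a covariate. All 4 arrays of T14 and HET lay on 1 side of the 4 others for 4 members, 2.58%, near the 2.45% of the array. These members include AT1G70150, which passed the filter only through the HET arrays, where it is highest. The median log2 difference of members was -0.032, against -0.013 over the array, and its median size was 0.141 against 0.12. A log2 difference over 0.5 in size was found for 4 members, 2.58%, against 2.42% over the array. For a member the median half-width of the 95% interval of the log2 difference was 0.359. Scanner background also separated the 2 sides of the contrast. It was 83.5 to 86.81 on the T14 and HET arrays and 87.36 to 112.87 on the CON and T13 arrays. This property of the arrays and carrying the insertion thus run together.

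**Figure D3:**
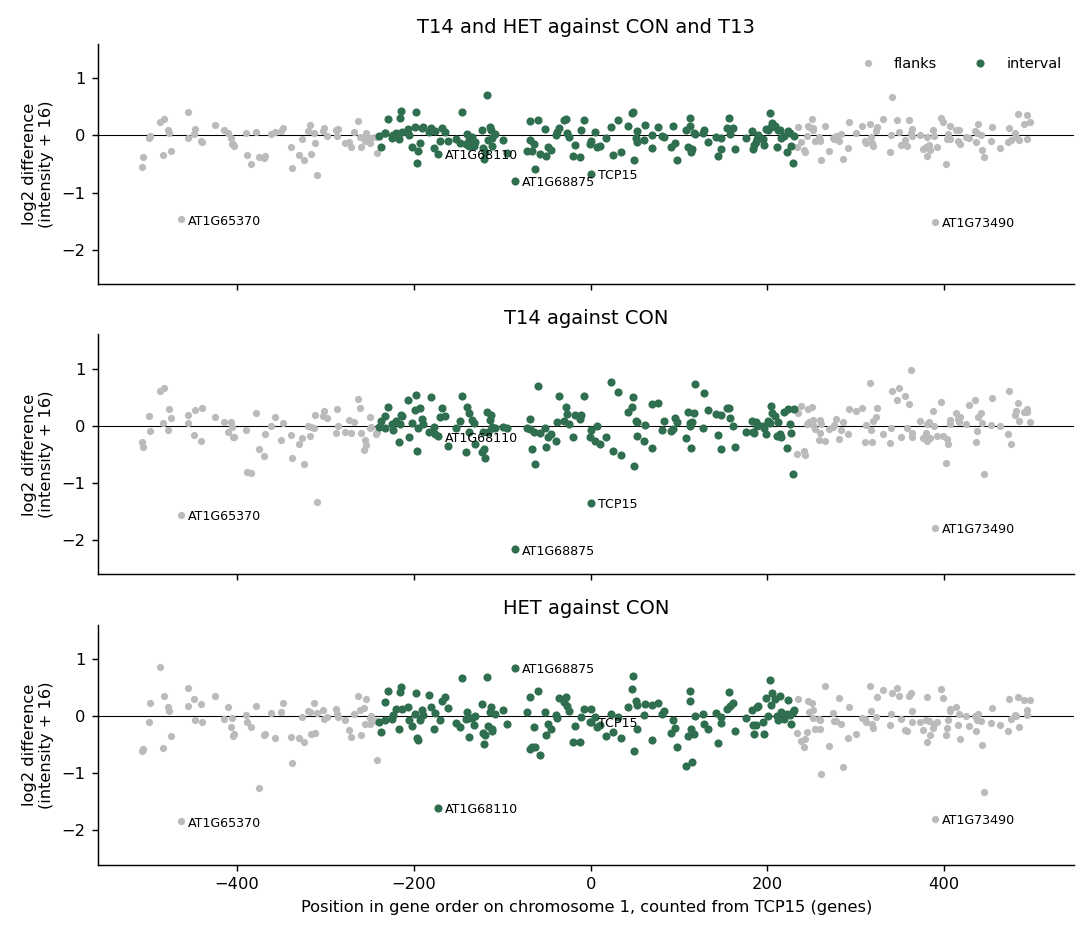
Log2 difference (vertical axis, intensity + 16) of each kept probe set against its position in gene order from TCP15 (horizontal axis, in genes), for 3 comparisons. Green points are the interval and grey points its flanks. In T14 and HET against CON and T13, interval points lie between -0.798 and 0.712, and AT1G65370 and AT1G73490 in the flanks lie below them.

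TCP15 and AT1G68875 had the smallest unadjusted p-values of the contrast among members, and both were low in T14 alone. Their log2 differences were -0.67 (SE 0.142, limma adjusted p = 0.312) and -0.80 (SE 0.196, limma adjusted p = 0.549). The next was AT1G70160, with 340.3 and 430.7 in CON, 522.5 and 483.9 in T13, 523 and 571.9 in T14, and 621.6 and 646.2 in HET. Its T14 and HET arrays all lay above the others, although T14 replicate 1 exceeded T13 replicate 1 by little, and the log2 difference was 0.41 (limma adjusted p = 0.954). AT1G70150, the locus before it in number, was also higher on all 4 arrays, from 32 to 42.3 against 19.4 to 30.9, but it passed the filter only through HET, where it is highest, so nothing is read from its order. AT1G67620 was the third member higher throughout, at 101.7 to 115.8 against 76.4 to 101.5. AT1G69910 was the 1 member lower on all 4, at 56.7 and 80.2 in T14 and 67.9 and 89.1 in HET against 91.7 to 102.1 (log2 -0.34, limma adjusted p = 0.982). In each of these 4 the gap between the nearest arrays of the 2 sides was small beside the spread within groups.

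The other members named among the 10 smallest unadjusted p-values did not all separate the same arrays, and some were dim. AT1G70620 was at 155.2 and 163.3 in CON and 158.5 and 179 in T14, but at 79 and 138.5 in HET and 200.1 and 233.9 in T13 (log2 -0.43). AT1G71730 was at 116.4 and 104.1 in HET, and at 48 to 80.3 on the other 6 arrays (log2 0.39). AT1G68820 (log2 -0.31) was highest in T13, at 134.4 and 163, while its CON and T14 arrays ranged from 98.7 to 108.4. AT1G68620 (log2 0.71) ran from 4.8 to 56.1 and passed the filter only through T14 and HET arrays, where it is high, so it had to differ to be counted. AT1G67880 (log2 -0.48) ran from 21.7 to 52.1. AT1G69510 had a log2 difference of -0.36, with 106.2 to 157.7 in the insertion groups and 134.7 to 205.5 in the others. Their limma adjusted p was 0.982 in all 6 cases. The other 4 members at an unadjusted p under 0.05 were AT1G67620 (log2 0.29), AT1G67870 (0.40), AT1G68360 (0.41) and LPR2 (-0.36), a multicopper oxidase known from the root response to low phosphate.

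The nearest measured neighbours of TCP15 showed no such pattern. AT1G69680, the gene just before TCP15, was at 112.9 and 97.1 in CON, 110.7 and 97.1 in T13, 96.3 and 83.5 in T14, and 101.4 and 91.7 in HET (log2 -0.14, SE 0.131). HVA22C, the gene just after, belongs to a family named for a barley gene induced by abscisic acid, and was at 242.4 and 303.8 in CON, 293.9 and 363.6 in T13, 223 and 293.4 in T14, and 307.3 and 289.9 in HET (log2 -0.10, SE 0.155). For both genes the 4 arrays of T14 and HET overlapped the 4 of CON and T13. HEMB1, a dehydratase of tetrapyrrole synthesis 5 genes after TCP15, was at 402.6 and 356.6 in T14 and 473.1 and 426.5 in HET, between the extremes of 321.4 and 494.3 set by T13 and CON (log2 0.06). AT1G69660, AT1G69630 and AT1G69730 are also within 6 genes and were too dim to be kept, at 0.5 to 45.9. Members nearer to TCP15, in a narrower window from AT1G68500 to AT1G70900, had a median size of 0.169 (78 kept), and the rest of the interval had 0.122 (77 kept). Of the 80 kept members before TCP15, 8 (10%) had an unadjusted p under 0.05, as had 5 (6.76%) of the 74 after it, against 4.89% over the array.

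Comparisons of T14 and HET with CON and with T13, and of T13 with CON, gave from 0 to 2 calls each. In T14 against CON 1 of 155 members passed, AT1G68875, where 0.0199% of the array passed (3 probe sets in limma). At an unadjusted p under 0.05 there were 8 members, 5.16%, against 5.82% of the array. Against T13, T14 had 2 members called (1.29%), TCP15 and AT1G68875, with 0.499% of the array called. In that comparison 8 members or 5.16% had an unadjusted p under 0.05, against 4.34% of the array. In HET against CON 1 member was called, AT1G68110, with 1.07% of the array called, and 10 members or 6.45% had an unadjusted p under 0.05 against 6.37%. HET against T13 gave 0 calls in limma, as over the array (0%), with 15 members or 9.68% at an unadjusted p under 0.05 against 9.91%. T13 against CON, in which neither group is labelled with the TCP15 insertion, gave 0 calls among members where 0.592% of the array passed in limma, and 7 members or 4.52% at an unadjusted p under 0.05 against 5.99%. These comparisons share arrays, so they are not independent of each other.

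Counts of members whose arrays did not overlap between groups were read in the same way. There were 46 in T14 against CON (29.7% of members, 35.4% of the array), 52 in HET against CON (33.5% and 34.2%) and 50 in T14 against T13 (32.3% and 29.7%). There were 67 in HET against T13 (43.2% and 43.2%) and 51 in T13 against CON (32.9% and 37.4%).

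**Figure D4:**
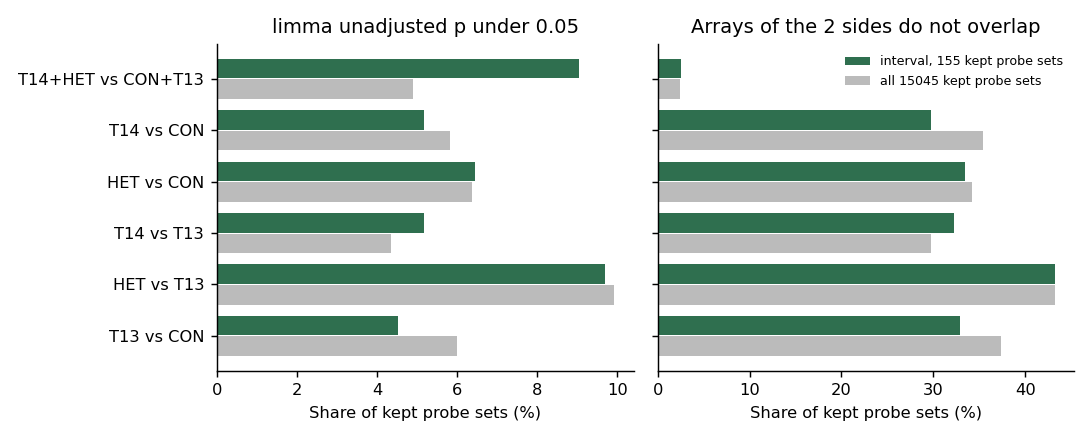
Share of kept probe sets (horizontal axis, percent) with an unadjusted p under 0.05 in limma (left) and with arrays that do not overlap between the 2 sides (right), for 6 comparisons. Green bars are the 155 members and grey bars all 15045 probe sets. The first comparison on the left, at 9.03% against 4.89%, has the widest gap of the left panel.

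AT1G68110, a putative clathrin assembly protein of the ENTH/ANTH class that acts in membrane traffic, was the member called lower in HET than in CON. It was at 112.2 and 96.4 in CON, 28.4 and 50.7 in T13, 69.2 and 114.5 in T14, and 18.9 and 28.6 in HET. Its HET and T13 arrays were the lowest 4, and T14 overlapped CON. Against CON, HET fell, with a log2 difference of -1.61 (SE 0.275, limma adjusted p = 0.0129), and lay below T14 by -1.42 (limma adjusted p = 0.0327). T13 differed from CON by -1.14, which did not pass (limma adjusted p = 0.173), and T14 from CON by -0.19 (limma adjusted p = 0.932). Late pollen markers numbered 10, of which 5 were named on the array and 4 passed the filter. Over the 5 named, the summed intensity was 1456.4 to 1494.2 in CON, 938.8 to 1505.5 in T14, 321 to 327.5 in T13 and 185.3 to 187.5 in HET, the same order as AT1G68110. AT3G07820 and AT5G48140 carried these sums, and their means had this order, as had those of ANX2. AT3G17060 had means of 149 in CON and 150 in T14. ANX1, the one not kept, was higher in HET (mean 5.9) than in T13 (2.85). This list holds genes that earlier results of these data named, so its order is not independent of them. The part of pollen content in the values of AT1G68110 was not tested. Its call in HET against CON was lost on leaving out any 1 of the CON and HET arrays (limma adjusted p = 0.152, 0.0772, 0.213 and 0.0642), and that against T14 without either CON array, T14 replicate 2 or either HET array (limma adjusted p from 0.0612 to 0.459).

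HET and T14 were also compared directly, a comparison added after the values had been seen. TCP15, AT1G68875 and AT1G68110 passed, 3 of 155 members, where 0.97% of the array passed. At an unadjusted p under 0.05 there were 15 members or 9.68%, against 9.81%, and 56 had arrays that did not overlap (36.1% against 39.2%). The first pair was higher in HET and AT1G68110 was lower, so these 3 calls do not run in 1 direction. The 3 calls became 1 without T14 replicate 2, without HET replicate 1 or without HET replicate 2.

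Members with an unadjusted p under 0.05 in T14 against CON or in HET against CON, chosen after their values were seen, pointed either way. Several of them, such as AT1G70160, were also under 0.05 in other comparisons. In T14 against CON, AT1G71970 was lower (34.3 and 11.2 against 60.5 and 41.2, log2 -0.84). Higher were AT1G69890 (81.4 and 100.9 against 44.9 and 48.9, log2 0.76), AT1G70820 (log2 0.73), the signal peptide gene CLE26 (49.5 and 68.5 against 32.5 and 34.2, log2 0.59), DEP (log2 0.58), a gene known from the control of seed dormancy, and AT1G70160 (log2 0.50). Their limma adjusted p was 0.622 to 0.814. For CLE26 and DEP the HET arrays, at 34.4 and 31.1 and at 28.7 and 36.7, lay near CON, and neither gene passed in HET against T14 (limma adjusted p = 0.457 and 0.325). CLE26 passed the filter only through T14 and HET arrays. In HET against CON, AT1G70790 (107.5 and 141.8 against 234.3 and 220.4, log2 -0.80), AT1G69160 (-0.69), AT1G69020 (-0.57) and AT1G70620 (-0.53) were lower. AT1G70160 (0.70), AT1G68360 (0.67), AT1G71730 (0.64) and AT1G67620 (0.43) were higher, and none of these 8 passed (limma adjusted p from 0.258 to 0.758).

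Of the 219 members, 22 have a gene symbol in the reference table and 16 of these were kept. None passed in the contrast of T14 and HET against CON and T13 in limma (2 had an unadjusted p under 0.05, TCP15 and LPR2), and leaving TCP15 aside their log2 differences ran from -0.43 to 0.31. Among genes of photosynthesis and photorespiration, PSBY, a photosystem II subunit, was at 1208.6 and 1070.8 in CON, 1173.1 and 853.7 in T13, 1510.5 and 884.4 in T14, and 1785.5 and 1302.5 in HET. Both HET arrays were the highest but for T14 replicate 1, which lay between them. NdhL, a subunit of the chloroplast NADH dehydrogenase-like complex, ran from 84.8 to 119.5, and both HET arrays were the highest. HPR, the hydroxypyruvate reductase of photorespiration, was at 786 and 740.1 in HET and at 493.4 to 647 on the other arrays (log2 0.06 for the contrast).

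The leaf marker RCA, rubisco activase, was at 2314.2 and 2405.2 in CON, 2420.9 and 1922.1 in T13, 3396 and 2416.4 in T14, and 3139.5 and 3162.2 in HET, so it was also high on the HET arrays and T14 replicate 1. Of the 5 leaf markers it was the one with a named probe set. Its part in the levels of PSBY, NdhL and HPR was not tested.

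For developmental and cytoskeletal genes of the interval, the arrays of T14 and HET overlapped those of CON and T13. AGO7, an Argonaute protein of small RNA pathways that set leaf development, was at 67.3 and 54.2 in CON, 79.8 and 54 in T13, 88.2 and 71.5 in T14, and 92.8 and 69.9 in HET. SP1L2, of the SPIRAL family of microtubule proteins, ran from 22.9 to 54.2, and PFI, a tubulin folding cofactor, from 48.8 to 136.4 with both extremes in T14. JAG, a zinc finger protein that promotes growth of floral organs, was at 27.3 to 36.4 on all 8 arrays and was not kept. The MADS box gene AGL94, at 5.7 to 16.2, was not kept either.

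Genes of secretion, protein turnover and metabolism were similar in this respect. SEC6, a subunit of the exocyst that tethers secretory vesicles, ran from 148 to 222.8, and CSN5B, a subunit of the COP9 signalosome, from 36.4 to 73.7. The matrix metalloproteinase gene MMP ran from 9 in T14 replicate 1 to 63 in CON replicate 1, and HGPT, a purine salvage enzyme, from 20.4 in CON replicate 1 to 52.8. The genes not kept included URE (urease), CCOAMT and PHYLLO. SUFE2, of a family that serves iron-sulphur cluster assembly, was not kept either. It was at 32.1 and 19.1 in CON, 2.9 and 13.4 in T13, 4.9 and 4.9 in T14, and 2.4 and 2.6 in HET. Both CON arrays were the highest, but all 8 values lay under the filter. AT1G70250 was the 1 gene with 2 probe sets, at 13.7 to 30.1 and at 8.1 to 15.5, and neither was kept.

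Of 28 genes listed for a role in flowers, anthers, the TCP family, cell division or housekeeping in and beside the interval, 2 had a named probe set, JAG and HPR. The rest are not analysed here.

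At the ends of the interval the members just inside were AT1G67510 and AT1G67530, and AT1G71970 and AT1G71980. AT1G67510 had mean intensities of 109 in CON, 95.5 in T13, 103 in T14 and 95.4 in HET. In the same order AT1G67530 had 101, 118, 106 and 80.4, AT1G71970 had 50.8, 60.2, 22.8 and 54.3, and AT1G71980 had 176, 243, 222 and 192. Just outside, AT1G67470 had means of 46.3, 39.6, 42.2 and 42.6, and AT1G67480 had 211, 177, 197 and 121. On the far side AT1G72020 had 818, 625, 573 and 669, and AT1G72030 had 351, 406, 407 and 433.

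The contrast was then read beyond the interval. In flanks of the interval, from AT1G65000 and up to AT1G74500, 2 of 161 kept probe sets passed, both lower in T14 and HET, and they lay on opposite sides at 463 genes before and 389 genes after TCP15. These 2 are named here after their values were seen. AT1G65370 was at 438.6 and 244.4 in CON, 206.7 and 266.6 in T13, 108.2 and 94.8 in T14, and 63.7 and 99.8 in HET (log2 -1.47, SE 0.199, limma adjusted p = 0.03). AT1G73490 was at 292.8 and 122.9 in CON, 151.1 and 103.4 in T13, 38.4 and 50.1 in T14, and 51.5 and 37 in HET (log2 -1.51, SE 0.232, limma adjusted p = 0.0491). For both genes the 4 arrays of T14 and HET lay below the 4 others, unlike TCP15 and AT1G68875, which were low in T14 alone. The call of AT1G65370 was lost on leaving out CON replicate 1 (log2 -1.268), T13 replicate 2 (-1.383), T14 replicate 1 (-1.51), T14 replicate 2 (-1.427), HET replicate 1 (-1.334) or HET replicate 2 (-1.603). That of AT1G73490 was lost on leaving out any array but CON replicate 2 (log2 from -1.635 to -1.226 for those 7). Scanner background was higher on every CON and T13 array than on any T14 or HET array, and highest on CON replicate 1 at 112.87. As a covariate it lowered the size of both, to -0.982 and -1.01, and neither passed (limma adjusted p = 1 for each). Neither passed with the GAPDH ratio as a covariate (limma adjusted p = 0.563 and 1) or with no filter (0.22 and 0.331). In all, AT1G65370 passed in 7 of 17 alternatives and AT1G73490 in 2 of 17.

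Of the 11 probe sets called in the contrast over the array, 7 had 1 gene with a locus tag, and 5 of these lay on chromosome 1. By chromosome, 5 of 2161 kept probe sets passed on chromosome 1 (0.231%), 1 of 1192 on chromosome 4, 1 of 1961 on chromosome 5, and 0 of 1210 and 0 of 1657 on chromosomes 2 and 3 (limma). At an unadjusted p under 0.05 the shares were 6.34% on chromosome 1 and 3.8%, 4.59%, 4.19% and 4.69% on chromosomes 2 to 5. Of the 5 on chromosome 1, 3 were outside both the interval and its flanks, and 0 were inside the interval.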

How the data were processed

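Per the labels, total RNA from inflorescences was hybridised to 8 ATH1 arrays, with 2 arrays in each of 4 groups. The deposited intensity values are linear, 1 per probe set. Software for this summary: not given in the sources used here. Every array had a 2% trimmed mean of 100 and was not scaled again. Plants grew at 18 °C with 16 h of light. Genes came from the platform annotation through Entrez identifiers to a RefSeq table of TAIR10.1: 13513 of 22810 probe sets had 1 gene and 13436 of these a locus tag. The files name no build, so no coordinates are printed, and no sequences were used here.

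limma 3.58.1 in R 4.3.3 was fitted to log2(intensity + 16) of all 8 arrays (lmFit, eBayes with an intensity trend, 4 residual and 7.39 prior degrees of freedom), after the 40th percentile filter, with control probe sets left out. Benjamini-Hochberg adjustment ran over all 15045 kept probe sets, and an adjusted p under 0.05 was called. The fit was tested on simulated data for the contrast of T14 and HET against CON and T13. It called 87 of 100 probe sets changed 2-fold, 99 of 100 changed 4-fold and 16 of 14845 unchanged ones. The share found depends on how many are changed, and the data gave 11 calls, so these shares need not hold for the members. Comparisons of 2 arrays with 2 were not simulated. Replicates were numbered in accession order, which pairs nothing. Named members were TCP15, AT1G68875, called members, the 10 smallest p-values of the contrast, the 3 nearest on each side of TCP15, 2 inside and outside each end, and role list genes. Members with a gene symbol and others stated were added after the files had been seen. Members, lists and tests were chosen with earlier results of these data known. Alternatives covered pseudocount, filter, quantile normalization, variance trend, 2 covariates, window and leaving out each array. Figures were drawn with matplotlib 3.10.9.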

Additional observations from a re-analysis of the deposited data

Results flagged for a closer look

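HET and T14, both labelled as carrying the TCP15 insertion, differed, in a comparison added after the values had been seen, by the limma test of that difference for 3 members of the interval. The log2 difference of HET from T14 was 3.00 for AT1G68875 (limma adjusted p = 0.000546), 1.24 for TCP15 (limma adjusted p = 0.01) and -1.42 for AT1G68110 (limma adjusted p = 0.0327). Each difference had both HET arrays on 1 side of both T14 arrays.

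For the GAPDH control, outside the main measurement, 5' signal over 3' signal reached 0.345 on HET replicate 1, and the CON arrays had 0.086 and 0.129. With this ratio as a covariate, the HET to T14 differences were 2.235, 1.262 and -0.905 and none passed (limma adjusted p = 0.105, 0.476 and 0.999).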

How the results depend on the processing

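With 2 arrays a group, the depth of evidence is limited by array number, and dim members by signal. No paired analysis was possible because replicate numbers only follow accession order. In T14 and HET against CON and T13, 0 members were called in limma under all alternatives run on the interval (from 1.94% to 11.6% at an unadjusted p under 0.05, against 2.04% to 8.15% over the array), and 2 in the wider window and in its flanks alone. HET against T13 and T13 against CON kept 0.

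The single call in T14 against CON became 0 with a pseudocount of 1 or 32, no filter, no intensity trend or scanner background as a covariate, and ranged from 0 to 1 over the left-out arrays. The single call in HET against CON became 0 in the narrower window, with no filter, and with scanner background or the GAPDH ratio as a covariate, 4 in the wider window, and 0 to 1 over left-out arrays. The 2 calls in T14 against T13 became 0 with no filter or scanner background and 1 with the GAPDH ratio, and 1 to 2 over left-out arrays. The 3 calls of HET against T14 became 0 with the GAPDH ratio, and 1 to 3 over left-out arrays. The 4 separated members became 2 after quantile normalization, 12 in the wider window, and 4 to 14 over left-out arrays, where fewer arrays have to separate. Shares of the array under these settings are not given here, so nothing about the members is read from these counts. The cause of the other changes was not tested.

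The sign turned under 8 alternatives, for no called value. These were HPR in the contrast without T14 replicate 1 (-0.004; left-out arrays -0.004 to 0.123), AT1G68360 with scanner background (-0.07), HEMB1 with scanner background (-0.002) and the GAPDH ratio (-0.028), AT1G68110 in T14 against CON with scanner background (0.022) and without T14 replicate 1 (0.121; left-out arrays -0.495 to 0.121), and TCP15 in HET against CON without CON replicate 2 (0.041) and without HET replicate 1 (0.011; left-out arrays -0.239 to 0.041). Alternatives gave 820 values, of which 17 were the median size over kept members and the rest belonged to 30 genes. Of the 820, 748 were unchanged, which for a gene means the same direction and the same side of the threshold. Most had not passed in the main fit, so for them staying unpassed counts as unchanged. A call held in the main fit was lost in 63 of the values.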
